A study of Danio rerio with 3 samples.

Results

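The 6 lysosomal cathepsin genes *ctslb*, *ctsba*, *ctsc*, *ctsd*, *ctsh*, and *ctsk* were followed in the liver of zebrafish larvae through all 16 probes that carry their RefSeq accessions. The array holds 43603 probes, of which 26094 name 13443 genes. *ctslb* was chosen by its intensity on these same arrays, because it was far lower on the high-cholesterol array than on the others. The values of *ctslb* on that array therefore describe how it was chosen and stand here without a test. The other 5 genes were taken as relatives to set beside it.

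The RNA came from the livers of AB strain larvae in 3 groups, each measured on 1 Agilent array with a single dye. From 5 days post-fertilization (dpf), the control group was fed AP100, a powdered larval feed, at 30 mg per 100 fish each day. The HCD group received a high-cholesterol diet of 180 mg AP100 with 4% cholesterol, and the BBR group received the same HCD with 5 μM berberine, a plant alkaloid. Feeding lasted 10 days, to 15 dpf. The HCD ration thus also held more feed than the control ration, and berberine without the HCD was not analysed here. The number of livers behind each RNA sample was not given in the sources used here. Since each group has 1 array, the differences have no replicates behind them, and P values are not given.

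Cathepsins are proteases that break down proteins in the acid interior of the lysosome. They are made as inactive precursors, carried to the lysosome, and activated there by removal of a propeptide. Cathepsins B, C, H, K, and L belong to the papain family of cysteine proteases, which cystatins inhibit, whereas cathepsin D is an aspartic protease. In the liver they serve the turnover of proteins taken up by endocytosis or delivered by autophagy, in hepatocytes and in resident macrophages alike. In bulk liver RNA, fewer cells of a type and less RNA per cell cannot be told apart.

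All 16 probes were printed as a single spot, were well above background on all 3 arrays, and none was saturated. One of them, the *ctsd* probe A_15_P412260, was marked as an outlier spot on the control and HCD arrays and was not compared, which left 15 probes. Levels are given as processed intensity, a spot's brightness after background subtraction. Differences are given as log2 intensity after subtraction of the 75th percentile of each array, so that 1 unit is 2-fold. This percentile lay between 2010 and 2144 on the 3 arrays. The scanner software put an error of 0.20 to 0.23 log2 units on each cathepsin difference, which covers the spot and not the animals. Across all named genes with several probes, the SD between the probes of a gene was 0.32 for HCD against control (6921 genes), 0.34 for BBR against HCD (7238 genes), and 0.30 for BBR against control (7290 genes).

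Control and BBR shared slide 1 and a scan, whereas HCD was alone on slide 2. In HCD against control, diet and slide therefore cannot be told apart, and in BBR against HCD, berberine and slide cannot. Only BBR against control is a comparison within a slide, and there diet and berberine differ together. The BBR array differed from both others in spot quality, with 20 outlier spots beside 1510 in control and 1665 in HCD. The SD between repeated spots of a probe was 0.09 log2 units in BBR and 0.18 in control and in HCD. Over all probes, the HCD array read dim probes lower. The median log2 difference of HCD from control was −0.37 in the dimmest of 4 equal bins of mean level, −0.22 in the next, −0.08 in the third, and −0.05 in the brightest. These bins were cut over the 37113 probes compared. The cathepsin probes were placed in 4 equal bins cut over all 43603 probes instead, so the bin edges differ. There, all 4 *ctslb* probes and 2 of the 3 *ctsc* probes belong to the second bin from the dimmest, and the other cathepsin probes to the brighter bins. Their bins among the probes compared were not determined. The share of the trend with level in the values of *ctslb* was not tested apart from the scalings given below.

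**Figure D1:**
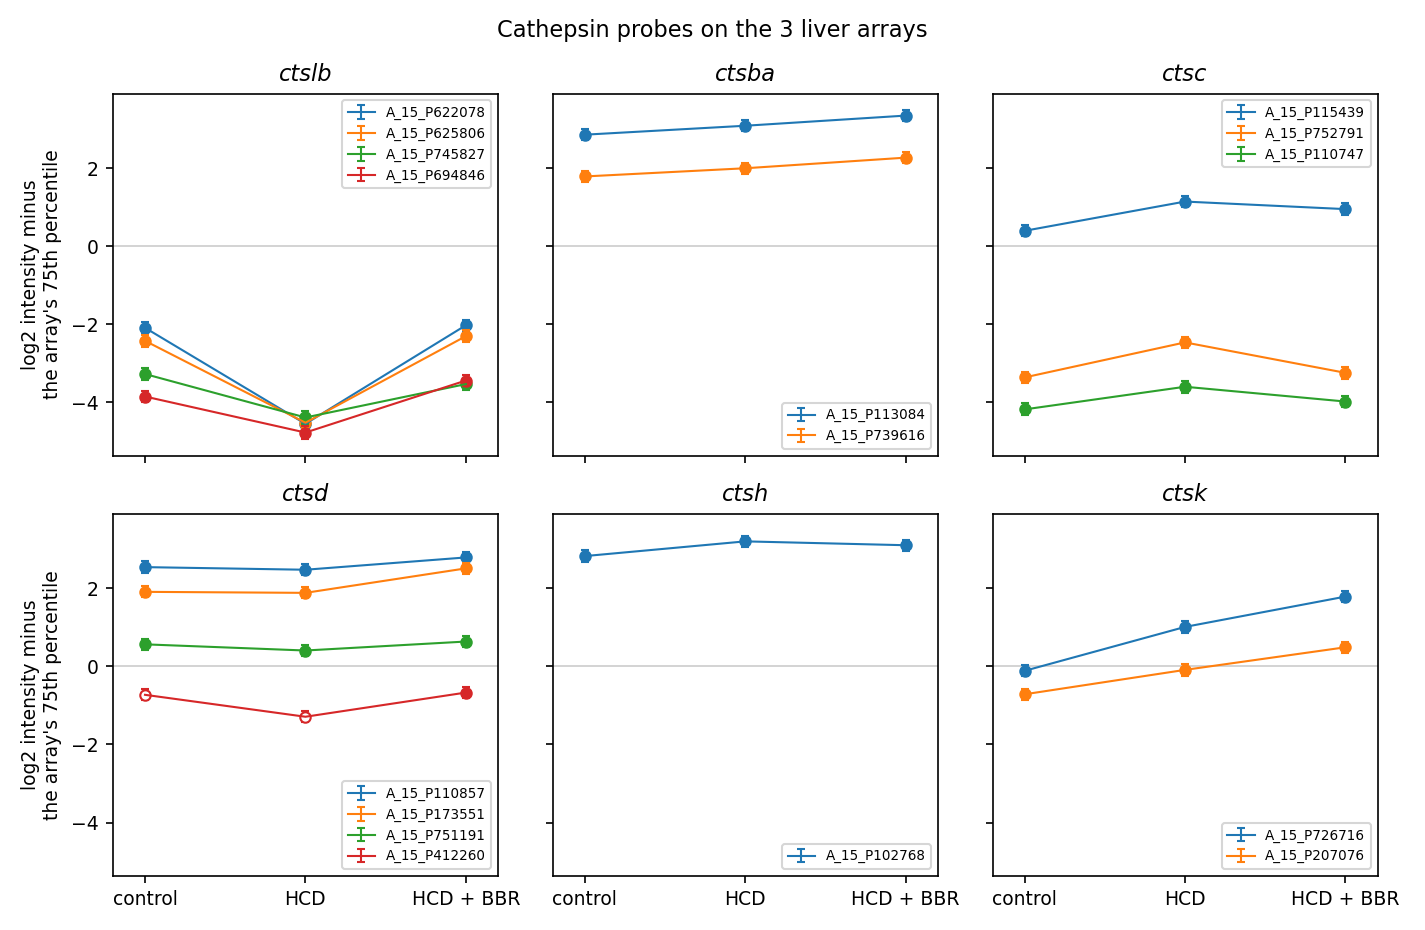
Log2 intensity minus the 75th percentile of the array for each probe of the 6 cathepsin genes (y axis) on the control, HCD, and HCD plus BBR arrays (x axis, 1 array each). Lines join the values of a probe, bars are the error that the scanner software gives for the spot, and open circles are outlier spots. The *ctslb* probes dip on the HCD array, with log2 differences from control of −2.46 to −0.92, the *ctsk* probes are lowest in control and highest in BBR, and the *ctsc* probes are highest on the HCD array.

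*ctslb* encodes a cathepsin L, an endopeptidase, and carries the older name *hgg1*, given for its expression in the hatching gland of the embryo. Its brightest probe, A_15_P622078, had an intensity of 473 in control, 86.6 in HCD, and 528 in BBR. Probe A_15_P625806 had 375, 88.4, and 435 on the same arrays. On both probes, the HCD array stood well below the other arrays, which lay close to each other.

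The other *ctslb* probes were also lowest on the HCD array, with smaller differences, but only A_15_P694846 shared the full order of the first pair. A_15_P745827 had an intensity of 208 in control, 96.9 in HCD, and 186 in BBR. A_15_P694846 had 140 in control, 74.2 in HCD, and 198 in BBR. On the HCD array, the 4 probes thus read 74.2 to 96.9, against a lowest signal well above background of 15.0 there, so none was at the limit of detection.

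The log2 differences of HCD from control were −2.46 and −2.10 for the first pair of probes and −1.11 and −0.92 for the second pair. The differences of BBR from HCD were 2.52 and 2.22 for A_15_P622078 and A_15_P625806, and 0.86 and 1.33 for A_15_P745827 and A_15_P694846. These comparisons share the HCD array, so a low reading there enters both. BBR differed from control by 0.06, 0.12, −0.26, and 0.41, in the same order of probes. For the first pair of probes, this within-slide difference was below the software error of 0.20. The size of the *ctslb* difference depended on the probe. Between A_15_P625806 and A_15_P745827, the log2 differences of HCD from control were 0.98 apart, with a software error of 0.31 on that gap. The SD between the 4 probes was 0.75 for HCD against control and 0.77 for BBR against HCD, beside 0.32 and 0.34 over all genes with several probes. Both comparisons use the HCD array, by which *ctslb* was chosen. For BBR against control, the SD between the 4 probes was 0.27, beside 0.30 over all such genes.

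**Figure D2:**
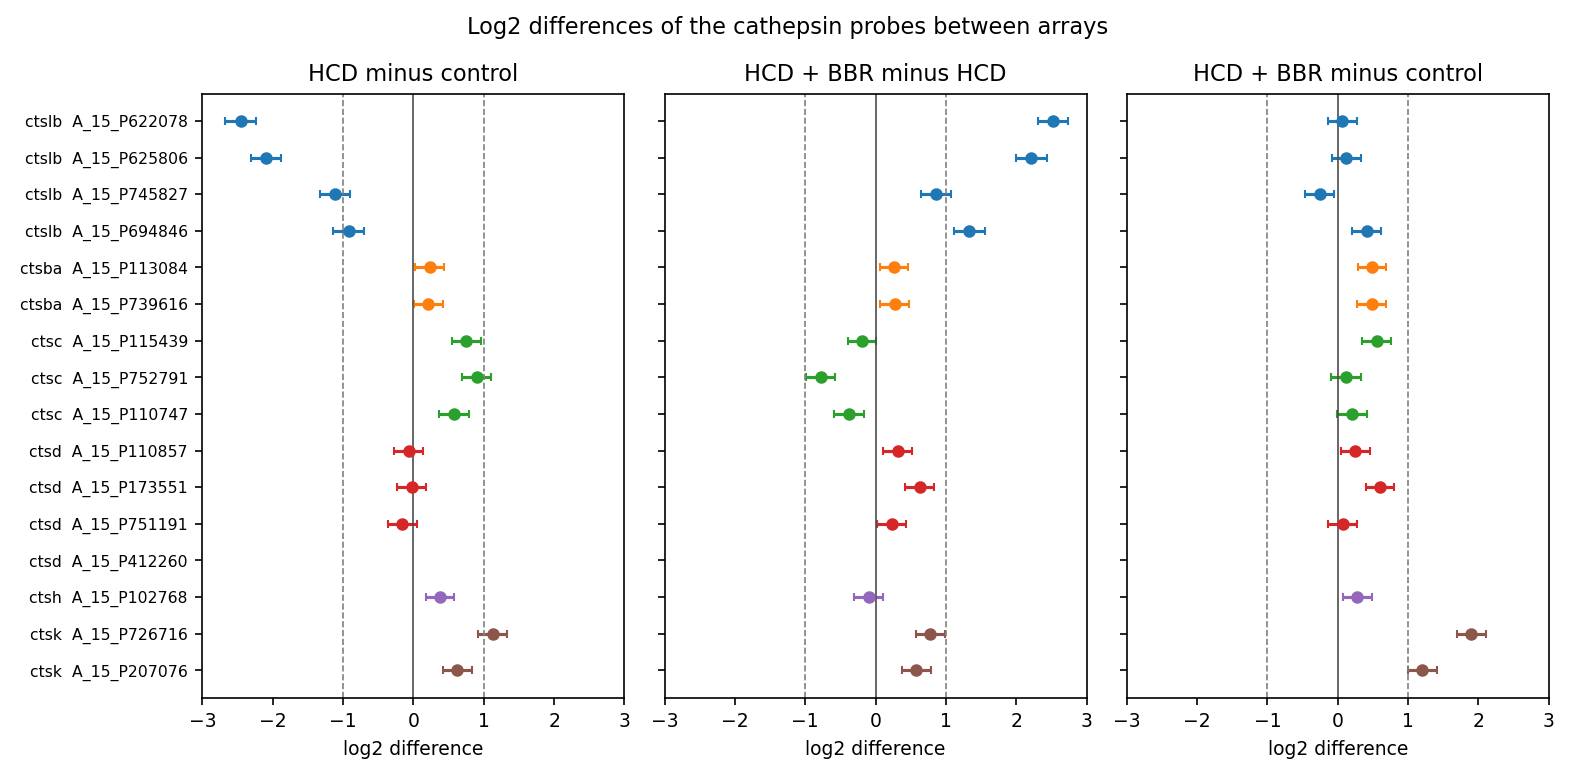
Log2 differences (x axis) of the 16 cathepsin probes (y axis, coloured by gene) for HCD minus control, HCD plus BBR minus HCD, and HCD plus BBR minus control, with 1 array per group. Bars are the software error of the difference, dashed lines mark 2-fold, and the outlier probe of *ctsd* has no point. In the first panel 3 *ctslb* probes lie past 2-fold on the lower side and 1 *ctsk* probe on the higher side, and in the last panel only the 2 *ctsk* probes lie past 2-fold.

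In the RefSeq annotation, *ctslb* lies in a run of 17 neighbouring protein-coding genes from *ctslb.4* to *zgc:174153*, of which 8 are named *ctsl*-something or have *ctsl* as a synonym. The bounds of this run were set after the values were seen. Named probes matched 5 genes of the run besides *ctslb*, with 10 probes in all. They are *si:dkey-239j18.2*, *wu:fa26c03*, *MGC174155*, *si:dkey-26g8.5*, and *zgc:174855*. Of the 10 probes, 5 belong to *MGC174155* alone and 2 to *wu:fa26c03*. These genes have no *ctsl* name or synonym in the annotation. All 10 probes were at least 2-fold lower in HCD than in control, beside 4.62% of all probes compared. Their differences were −2.49 to −1.61, with a median of −2.23. All 10 were also at least 2-fold higher in BBR than in HCD, beside 5.00% of all probes compared. These differences were 1.52 to 2.48, with a median of 2.30. BBR against control gave −0.14 to 0.35, so no probe of the run was 2-fold apart within the slide.

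Each of these neighbours was lowest on the HCD array. The probe of *si:dkey-239j18.2* had an intensity of 376 in control, 86.7 in HCD, and 513 in BBR. That of *si:dkey-26g8.5* had 460, 97.4, and 551. The probe of *zgc:174855*, with the smallest difference among the 10 probes of these neighbours, had 133 in control, 44.1 in HCD, and 134 in BBR. The first gene past the end of the run, *pank1b*, a pantothenate kinase, had 1702, 1630, and 1665 on the brightest of its 3 probes. The log2 differences of HCD from control were −0.07 to 0.10 over its 3 probes, without a dip of such size. Copies of a cathepsin L gene that stand side by side can be nearly identical in sequence, and a probe can then bind the transcripts of several. Whether the probes of *ctslb* and its neighbours read one transcript or several was not tested, so the values of *ctslb* are uncertain as values of that single gene.

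**Figure D3:**
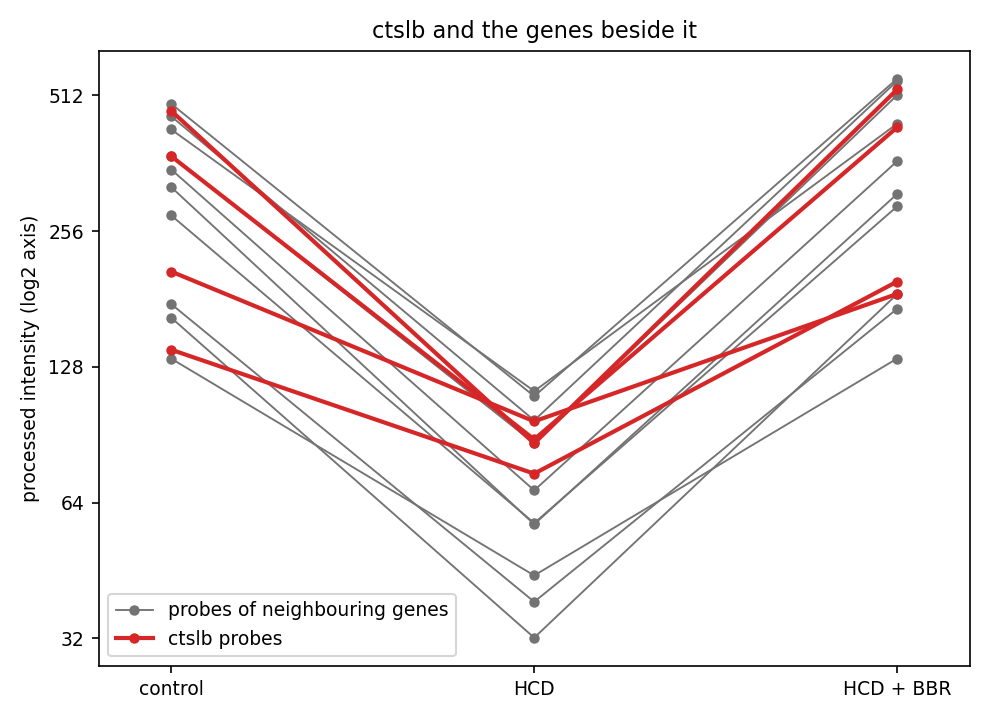
Processed intensity (y axis, log2 scale) on the control, HCD, and HCD plus BBR arrays (x axis, 1 array each) for the 4 probes of *ctslb* (red) and the 10 probes of 5 neighbouring genes (grey). Each line is a probe. All 14 lines are lowest on the HCD array, where the grey lines read 32.1 to 113, and return to 134 to 557 on the BBR array.

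Genes with a pattern like that of *ctslb* were sought over the whole array. Likeness was measured as the distance between log2 differences, over HCD against control and BBR against HCD, from the brightest *ctslb* probe to the brightest probe of each of 12312 named genes. The nearest were *si:dkey-26g8.5* (distance 0.24), *si:dkey-239j18.2* (0.33), *isg15* (0.34), *wu:fa26c03* (0.40), and *si:ch211-276k2.1* (0.41). Both differences use the HCD array by which *ctslb* was chosen, so the search describes genes that are also low there and tests nothing. Of these 5 genes, 3 belong to the run, whose bounds were set after the values were seen. Whether the probes of these 3 genes read the same transcripts as those of *ctslb* was not tested. *isg15*, a ubiquitin-like protein induced by interferon, had an intensity of 6241 in control, 1444 in HCD, and 8525 in BBR.

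*ctsk* encodes cathepsin K, known in mammals as the collagen-degrading protease of osteoclasts and also made by some macrophages. Probe A_15_P726716 had an intensity of 1857 in control, 4076 in HCD, and 7395 in BBR. Probe A_15_P207076 had 1224 in control, 1902 in HCD, and 3008 in BBR. Both probes had the order control, HCD, BBR, and each step was larger than the software error of 0.20.

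The log2 differences of A_15_P726716 were 1.12 for HCD against control, 0.78 for BBR against HCD, and 1.90 for BBR against control. Those of A_15_P207076 were 0.63 and 0.58, and BBR was 2.30-fold higher than control. *ctsk* was thus the cathepsin with the largest difference within the slide, at least 2-fold on both probes. The first probe exceeded the second by 0.70 in this comparison, with a software error of 0.29 on the gap. *ctss2.1* and *ctss2.2*, cathepsin S genes that neighbour *ctsk* in the annotation, were also highest in BBR. The brightest probe of *ctss2.1* had 2903 in control, 4769 in HCD, and 5474 in BBR, and its 3 probes differed by 0.82 to 0.93 for BBR against control. Its dimmest probe, A_15_P755166, differed by −0.19 for HCD against control and by 1.00 for BBR against HCD, which was 2-fold, whereas the other probes of *ctss2.1* were higher in HCD than in control and short of 2-fold. The probe of *ctss2.2* was an outlier spot in control, and its log2 difference for BBR against HCD was 0.54.

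*ctsc* encodes cathepsin C, a dipeptidyl peptidase that in mammals activates the granule proteases of neutrophils and other leukocytes. Probe A_15_P115439 had an intensity of 2643 in control, 4474 in HCD, and 4144 in BBR. Probe A_15_P752791 had 196 in control, 368 in HCD, and 227 in BBR, and A_15_P110747 had 111, 167, and 136. All 3 probes were lowest in control and highest in HCD. The log2 differences of HCD from control were 0.75, 0.90, and 0.58, none at 2-fold, and those of BBR from HCD were −0.19, −0.78, and −0.38. BBR against control gave 0.56, 0.12, and 0.20. The dim *ctsc* probes were higher in HCD, and the median of all probes compared was lower there in each of the 4 bins of level. The part of the trend with level in the values of *ctsc* was not tested.

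*ctsba* encodes cathepsin B, an abundant lysosomal endopeptidase and carboxydipeptidase. Its probe A_15_P113084 had an intensity of 14559 in control, 17180 in HCD, and 21789 in BBR, and its probe A_15_P739616 had 6937, 8079, and 10331. Both probes had the same order of arrays, and their log2 differences were nearly equal. They were 0.23 and 0.21 for HCD against control, 0.26 and 0.27 for BBR against HCD, and 0.49 and 0.48 for BBR against control. The steps into and out of HCD were about as large as the software error of 0.20, and that between BBR and control was larger.

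*ctsd* encodes cathepsin D, the aspartic protease of the lysosome. Probe A_15_P110857 had an intensity of 11696 in control, 11244 in HCD, and 14814 in BBR. Probe A_15_P173551 had 7542, 7460, and 12202, and A_15_P751191 had 2971, 2681, and 3330. All 3 probes were highest in BBR, and control and HCD lay within the software error of each other. The log2 differences of HCD from control were −0.07, −0.03, and −0.16, and those of BBR from HCD were 0.31, 0.63, and 0.23. BBR against control gave 0.25, 0.60, and 0.07. The direction of HCD against control changed under 1 alternative processing for A_15_P110857 and under 3 for A_15_P173551, and that of BBR against control under 1 for A_15_P751191. The outlier probe A_15_P412260 had 1213 in control, 828 in HCD, and 1347 in BBR.

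*ctsh* encodes cathepsin H, an aminopeptidase of the lysosome. Its single probe, A_15_P102768, had an intensity of 14227 in control, 18602 in HCD, and 18399 in BBR. HCD and BBR lay together and above control. The log2 differences were 0.38 for HCD against control, −0.10 for BBR against HCD, and 0.28 for BBR against control, and with 1 probe no spread between probes can be given.

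Counted together, 4 of the 15 cathepsin probes were at least 2-fold apart between HCD and control, 1 higher and 3 lower in HCD, and the 3 lower ones belong to *ctslb*. Of all 37113 probes compared, 8.16% were at least 2-fold apart, 3.55% higher and 4.62% lower in HCD. Without *ctslb*, 1 of 11 probes was 2-fold apart, which is near the background share. Between BBR and HCD, 3 of 15 probes were at least 2-fold higher in BBR, all of *ctslb*, and none of the 11 others was 2-fold apart. The background was 6.35%, with 5.00% higher and 1.36% lower in BBR. Between BBR and control, 2 of 15 probes were at least 2-fold higher, both of *ctsk*, and none was 2-fold lower, against a background of 5.12%, with 3.72% higher and 1.40% lower. At 1.5-fold, 8 of 15 cathepsin probes were apart between HCD and control, of which 4 of 11 remain without *ctslb*, beside 28.1% of all probes. Between BBR and HCD 7 were apart, or 3 of 11 without *ctslb*, beside 22.2%. At 3-fold, 2 were apart between HCD and control and none without *ctslb*, beside 1.60%, and 1, of *ctsk*, between BBR and control, beside 1.48%.

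The 11 compared probes of *ctsba*, *ctsc*, *ctsd*, *ctsh*, and *ctsk* all had a positive log2 difference of BBR from control, as 47.2% of all probes did. They ranged from 0.07 to 1.90 with a median of 0.48, beside a median of −0.02 over all probes compared. For HCD against control their median was 0.38 and that of all probes −0.16, and for BBR against HCD the medians were 0.26 and 0.13. Probes of one gene share a transcript, so these 11 probes stand for 5 genes. The level of all probes itself moved with the scaling, from −0.16 for HCD against control to −0.01 under cyclic loess. The split of the 2-fold calls over all probes moved as well. Higher calls made up 43.5% in HCD against control, with 73.1% after cyclic loess and 68.2% after quantile normalization. In BBR against HCD they made up 78.6%, with 52.4% and 49.7% after the same steps, and the remaining scalings and normexp lay between. Under either of these scalings, the cathepsin calls for HCD against control were 2 higher and 2 lower. The second call on the higher side was *ctsc* A_15_P752791, at 1.03 under quantile normalization. *ctslb* A_15_P745827, at −0.85 under cyclic loess and −0.90 under quantile normalization, was no longer called. The brightest *ctslb* probe kept −2.26 under both.

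Of 13 other cathepsin symbols, 8 had a brightest probe that could be compared, and none of these was 2-fold apart in any comparison on that probe. Read the same way, 7.31% of all named genes were at least 2-fold apart between HCD and control, 4.09% higher and 3.22% lower. Between BBR and HCD the share was 4.16%, with 2.80% higher and 1.36% lower, and between BBR and control it was 3.95%, with 2.84% higher and 1.11% lower. The 13 symbols leave out the genes of the run beside *ctslb*, whose 10 probes were all at least 2-fold apart in both comparisons that use the HCD array. *ctsla* and *ctsl.1* are further cathepsin L genes, which lie outside that run. The brightest probe of *ctsla* had an intensity of 36824 in control, 30025 in HCD, and 35044 in BBR, and that of *ctsl.1* had 36167, 29803, and 40334. Both were lowest on the HCD array, but by less than *ctslb* and its neighbours of the run. Their log2 differences of HCD from control were −0.30 and −0.29, and those of BBR from HCD were 0.14 and 0.35. The other 2 probes of *ctsla* gave −0.55 and −0.45 for HCD against control.

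The remaining relatives had small differences in both directions. For HCD against control, they were 0.55 for *ctsa*, a serine carboxypeptidase that protects other lysosomal enzymes, −0.19 for *ctsf*, 0.10 for *ctsll*, −0.08 for *ctss1*, and 0.39 for *ctsz*, a carboxypeptidase. For BBR against HCD, they were −0.09, 0.06, −0.39, −0.22, and −0.02 in the same order. The medians of the 8 genes were 0.01 for HCD against control, 0.02 for BBR against HCD, and −0.03 for BBR against control, where 4 of the 8 were lower in BBR.

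Among the cystatins, which inhibit cysteine cathepsins, *cst3* had an intensity of 12115 in control, 8633 in HCD, and 13428 in BBR. It was lower in HCD, by −0.50 on the log2 scale, whereas *cst14a.2* was higher there, by 0.47. Legumain (*lgmn*), a protease that processes cathepsins, differed by 0.30 for HCD against control and −0.05 for BBR against HCD. None of the 4 genes measured in this group was 2-fold apart in any comparison.

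The other lysosomal genes were read from lists drawn up with earlier results known. Of 24 lysosomal hydrolases and activators, 2 were at least 2-fold higher in HCD than in control and none was lower. Of all named genes, 4.09% were at least 2-fold higher and 3.22% lower. The 2 genes on the list were *manba*, a beta-mannosidase, with 120, 319, and 239 in control, HCD, and BBR, and *glb1*, the beta-galactosidase, with 303, 638, and 641. For both genes a second, dimmer probe differed by less than 2-fold, with −0.40 for *manba* and 0.34 for *glb1*. The list had a median of 0.25 for HCD against control, 0.14 for BBR against HCD, and 0.28 for BBR against control. In the last comparison 3 genes were at least 2-fold higher and none lower, beside 2.84% of all named genes higher. These were *gla*, an alpha-galactosidase, with 1.23, *fuca1.1*, an alpha-fucosidase, with 1.04, and *ctbs*, a chitobiase, with 1.04. The second probe of *gla* gave 0.39 and that of *ctbs* 1.53. Of 22 genes of the lysosomal membrane and of enzyme sorting (21 of them compared for HCD against control) and of 20 subunits of the vacuolar ATPase, which acidifies the lysosome, none was 2-fold apart in any comparison. Their medians were 0.00 and 0.07 for HCD against control, 0.13 and −0.08 for BBR against HCD, and 0.16 and 0.06 for BBR against control.

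**Figure D4:**
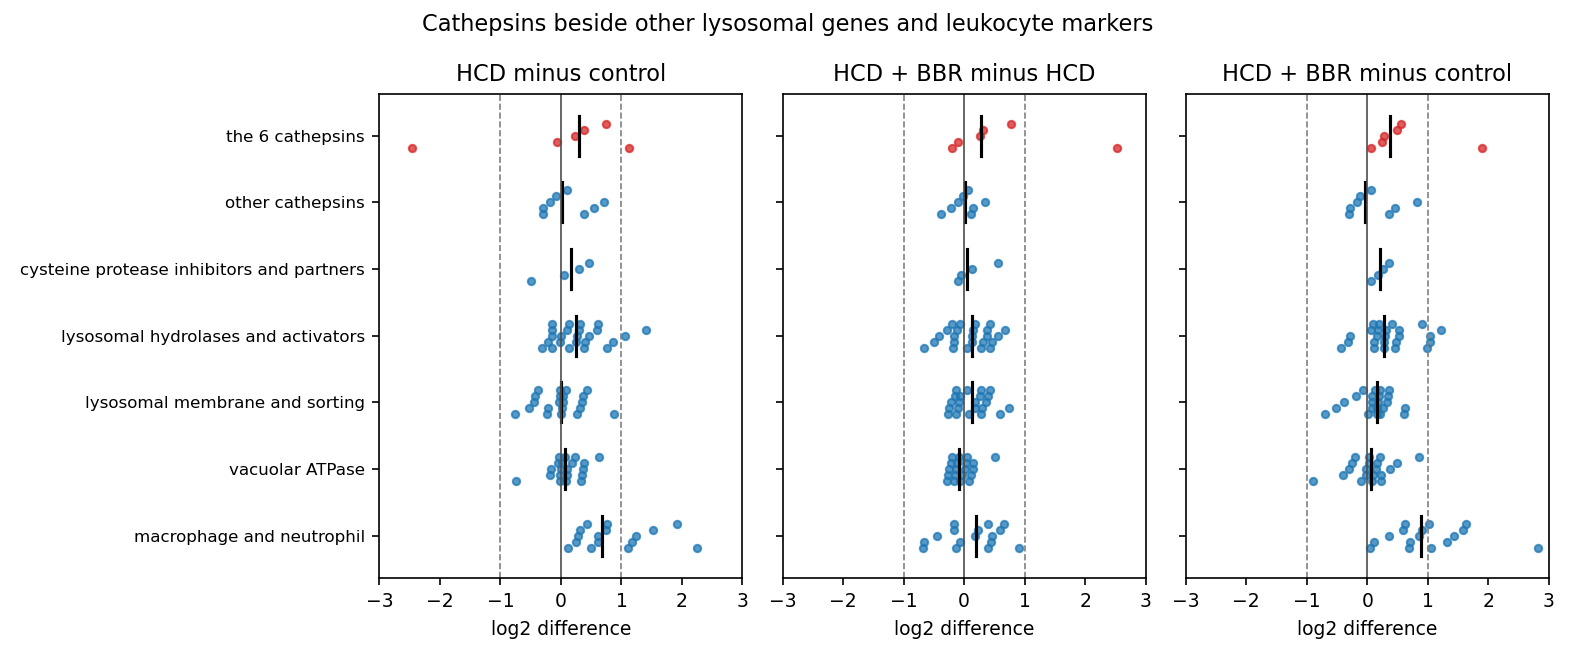
Log2 differences (x axis) of the 6 cathepsin genes (red), of 5 lists of lysosomal genes, and of macrophage and neutrophil markers (blue), each gene read by its brightest probe, for HCD minus control, HCD plus BBR minus HCD, and HCD plus BBR minus control, with 1 array per group. Black bars are list medians and dashed lines mark 2-fold. *ctslb* lies outside the range of every lysosomal list in the first 2 panels, both of which use the HCD array by which it was chosen. The lists leave out the neighbouring genes of *ctslb*. The leukocyte markers lie above 0 in the first and last panels with medians of 0.68 and 0.88.

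Macrophages and neutrophils are rich in cathepsins, and their markers were read beside the cathepsins. Of 21 marker symbols, 16 were measured, all well above background on every array. Sums of intensity, here and below, are not scaled between the arrays. The sum of the markers was 52515 in control, 93264 in HCD, and 110169 in BBR. All 16 were higher in HCD than in control and higher in BBR than in control. Of all probes compared, 37.3% and 47.2% were higher in these comparisons. These shares include dim probes and were not taken over the brightest probes of named genes. In the brightest of 4 bins of level, 55.3% and 56.3% of the probes were lower. The medians of the markers were 0.68 and 0.88, with 6 and 7 genes at least 2-fold higher. Among all named genes, 4.09% and 2.84% were at least 2-fold higher. For BBR against HCD the markers had a median of 0.20, with none 2-fold apart, beside 4.16% of all named genes. In the study, L-plastin staining showed more liver macrophages in HCD than in control, and berberine reversed this. Those are numbers of stained cells, whereas the values here are RNA. The genes with the largest differences of HCD from control were *irf8*, a transcription factor of macrophages, with 2.25, *mpeg1.2*, a perforin-like gene of macrophages, with 1.92, *mpx*, the myeloperoxidase of neutrophils, with 1.53, and *lygl1*, a lysozyme g, with 1.25.

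The markers were divided over BBR against HCD, where 7 of the 16 were lower in BBR and the rest higher. Since all 16 were lowest in control, this split alone gives the list genes with the order of arrays of *ctsk* and genes with that of *ctsc*. *mpeg1.2* had an intensity of 1279 in control, 4860 in HCD, and 9641 in BBR, whereas *mpx* had 508 in control, 1475 in HCD, and 977 in BBR. The part of these cells in the values of *ctsk*, *ctsc*, and the other cathepsins was not tested. Of the osteoclast markers, 4 of 7 were measured, with a summed intensity of 2765 in control, 4959 in HCD, and 4299 in BBR. None was 2-fold apart, and the tartrate-resistant phosphatase genes *acp5a* and *acp5b* differed by 0.69 and 0.42 for BBR against control. The markers were divided in the other comparisons. For HCD against control they ranged from −0.72 to 0.97, with 1 of the 4 lower in HCD. For BBR against HCD they ranged from −0.55 to 0.93, with 2 of the 4 lower in BBR.

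Markers of other tissues were read beside *ctslb*. Of the hatching gland markers, 4 of 7 were measured, with a summed intensity of 16271 in control, 17484 in HCD, and 21355 in BBR. The hatching enzyme genes *he1.2* and *he1.3* were lowest in HCD and highest in BBR, the order of the brightest *ctslb* probe. *he1.2* had an intensity of 34.0 in control, 16.6 in HCD, where it was not well above background, and 67.0 in BBR. Its own signal was used on the HCD array, which put HCD 2.06-fold below control and 3.80-fold below BBR. As that signal was not well above background, these folds are uncertain and are not lower bounds. The other 2 probes of *he1.2* were not well above background on any array. *he1.3* had 7090, 5966, and 9574 on its brightest probe, and its other 2 probes were likewise not well above background. Of the 4 markers, 3 were lower in HCD than in control, and 1 was higher, by 0.37. Of the lower ones only *he1.2* was past 2-fold, on its dim HCD signal. In BBR against HCD, *he1.2* and *he1.3* were higher, the first past 2-fold, and the other 2 markers were lower, without the order of *ctslb*. The summed intensity of the list rests mostly on these other markers. The medians were −0.28 and 0.28, and the part of such cells in the values of *ctslb* was not tested. The 13 hepatocyte markers measured were all well above background on every array, none was 2-fold apart, and their summed intensity was 387580 in control, 366744 in HCD, and 426027 in BBR. The medians of HCD against control were 0.16 for intestine (8 genes), −0.18 for skin (7 genes), −0.26 for exocrine pancreas (11 genes), and 0.50 for erythrocytes (6 genes). All 11 exocrine pancreas markers were lower in HCD than in control, as were 62.5% of all probes compared. Their summed intensity was 805433 in control, 678745 in HCD, and 775616 in BBR, above that of the hepatocyte markers. In control, the sums were 219083 for skin and 114067 for intestine, so markers of other tissues were also bright on these arrays. The part of these tissues in the values of *ctslb* and of the other cathepsins was not tested.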

How the data were processed

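The authors deposited, for each spot, the processed intensity written by Feature Extraction (11.5.1.1 in the file headers, 10.7 in the submitters' processing notes), with its error and its quality marks. A table of log2 values from GeneSpring was deposited too, with the 75th percentile subtracted, and served as an alternative. Here, control spots were removed, spots of a probe were averaged, and the 75th percentile over 43603 probes was subtracted on the log2 scale. In all, 2657 probes had an outlier spot, and each was left out of the comparisons that use the marked array. A comparison took probes well above background on either of its arrays. On the other array the probe's own signal was kept, or the lowest signal well above background stood in where the own signal was below it. Accessions were matched to RefSeq genes of assembly GRCz12tu for names and gene order alone, giving a symbol to 26094 probes (59.8%). The array design used another assembly, so no coordinates are given.

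The members and lists were chosen with earlier results of these data known. Named are all cathepsins measured, up to 4 genes per list at least 2-fold apart in HCD against control or BBR against HCD, and the 5 genes most like *ctslb*. Genes of the run beside *ctslb*, those of the cystatin group, *gla*, *fuca1.1*, *ctbs*, *ctss2.2*, *pank1b*, and the markers of osteoclasts and the hatching gland were named after their values were seen. Genes were called at 2-fold, without tests. The alternatives were 4 scalings, normexp correction with an offset of 50 on the median signal, 2 filters, outlier spots kept, the deposited log2 values, thresholds of 1.5-fold and 3-fold, and the mean of a gene's probes. The steps were checked on simulated data. Scaling used limma 3.58.1 in R 4.3.3, and the rest Python 3.11.15 with numpy 2.4.6, pandas 2.3.3, and matplotlib 3.10.9.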

Additional observations from a re-analysis of the deposited data

How the results depend on the processing

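The count of cathepsin probes at least 2-fold apart between HCD and control was 4, and it became 8 at 1.5-fold and 2 at 3-fold. For BBR against HCD it went from 3 to 7 at 1.5-fold, and for BBR against control from 2 to 1 at 3-fold. Of 405 values of single probes under 9 alternatives, 400 moved by less than the SD between probes and none that was called changed sign. The other 5 were *ctslb* values under normexp, which gave −1.98 and −1.53 for HCD against control on A_15_P622078 and A_15_P625806, and 2.04, 1.59, and 0.91 for BBR against HCD on these and A_15_P694846, so that the last lost its call. *ctslb* A_15_P745827 was 2-fold lower in HCD under 6 of 9 alternatives. The mean of the 4 *ctslb* probes was −1.65 and 1.73, and that of *ctsk* for BBR against control 1.55. Over all probes, normexp lowered the counts past 2-fold from 3030, 2464, and 1999 to 1294, 811, and 1040. No paired analysis was possible because each group has 1 array. Precision is limited by the number of arrays.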
